A study of Mus musculus with 6 samples.

Results

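The genes described here encode 36 proteins of the cardiac sarcomere and its Z-disc. They were chosen by name, with no measured value in the rule but with earlier results of these data known. All 36 were found among the 54532 genes of the deposited expression table. RNA from the hearts of 3 WT and 3 Mc4r KO mice, all aged 12 weeks, was sequenced as 1 library for each mouse. The Mc4r KO mice were homozygous knockouts of the melanocortin-4 receptor, known mainly for the control of appetite by the hypothalamus, and the WT mice were littermates from the same matings of heterozygous parents. All were males on the C57B/6/N background, no treatment is named, and no driver limits the knockout to the heart. The tissue is given as heart or muscle in the sample labels and as left ventricle by the study. The comparison asks how the transcripts of the contractile apparatus differ between hearts with and without the receptor.

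The sarcomere is the repeating contractile unit of the cardiomyocyte. Thick filaments of myosin, held together at the M-band, slide along thin filaments of actin, tropomyosin and troponin, and titin spans from the Z-disc to the M-band as a spring. The Z-disc anchors the thin filaments of neighbouring sarcomeres through alpha-actinin and is known as a place where LIM and PDZ proteins, filamin and chaperones gather, and desmin ties it to the rest of the cell. Mutations in many of these genes cause inherited cardiomyopathies.

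Values are the deposited FPKM, in which the fragments of a gene are divided by its length and by a factor of its library. Levels of different genes can thus be compared per length. Factors that bring the median gene of each library to the same level (median-of-ratios) were already 1 for these values. The library factor was therefore not the number of counted reads alone. The 3 values of a group are given in the order of replicates 1, 2 and 3. Between 14691076 and 16047003 reads per library were counted on genes. Transcripts of the mitochondrial chromosome took 59.3%, 57.4% and 47.1% of the summed FPKM in WT and 43.6%, 46.6% and 43.0% in Mc4r KO, lower in every KO library. The summed level of 8 atrial markers was 834 FPKM in WT replicate 3 against 15.5 to 149 FPKM in the other 5 libraries, and 0 of the 8 had an unadjusted p under 0.05. By a chi-square of the recovered reads over genes, divided by its degrees of freedom so that sampling noise alone gives about 1, WT replicate 3 differed less from the KO libraries (23.7 to 32.7) than from WT replicates 1 and 2 (45.9 and 41.0), which differed from each other by 14.3. By that measure WT replicates 1 and 2 stood apart from the other 4 libraries, as they did in the mitochondrial share. The correlation of log2 FPKM over genes of at least 10 FPKM gave another order. WT replicate 3 correlated at 0.967 with Mc4r KO replicate 1, but at 0.947 with Mc4r KO replicates 2 and 3. Its correlations with WT replicates 1 and 2 were 0.948 and 0.958. The defining skeletal muscle myosins Myh1, Myh2 and Myh4 had at most 0.0298 FPKM in any library. Mc4r itself had no reads except for 2 in WT replicate 3, so its level does not check the genotype labels at this depth. In bulk RNA, fewer cardiomyocytes and less RNA per cardiomyocyte cannot be told apart.

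All 36 genes passed the filter on low values, with mean levels from 3.46 FPKM for Pdlim3 to 6359 FPKM for Actc1. Fhl2 and Pdlim5 were called higher in Mc4r KO at an adjusted p under 0.05 (limma on log2(FPKM + 0.1), adjusted by Benjamini-Hochberg over all 18035 genes tested), and none of the 36 was called lower. Among all genes tested, 0.41% were called higher and 0.172% lower by the same rule. Of the 2 called genes, Fhl2 alone also had an absolute log2 fold change above 0.75 in this test. Both limits were met on the higher side by 0.316% of all genes. The study set that fold limit for another test, DESeq2 on read counts, which was not run here. At an unadjusted p under 0.05, 14 of the 36 genes were higher and 3 were lower (Nebl, Mylk3 and Myom2), beside 12% and 8.83% of all genes tested. All Mc4r KO libraries lay above all WT libraries for 16 of the 36 genes, and below them for Nebl, Mylk3 and Myom2. The same held for 14.1% and 12.4% of all genes tested, and for 33.5% and 8.79% of the 3265 genes with a mean of at least 10 FPKM, a level that every one of the 36 genes except Pdlim3 reached.

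The median log2 fold change of the 36 genes was 0.21, with 26 positive and 10 negative values from -1.04 for Myom2 to 0.91 for Fhl2. The median was -0.01 over all genes tested and 0.13 over those with at least 10 FPKM, of which 67.9% were positive, so most well expressed genes shared the sign. By position in the sarcomere, the median was 0.37 for the 12 genes of the Z-disc core, 0.30 for the 7 genes of the Z-disc edge and cytoskeleton, 0.14 for the 8 genes of the thin filament, 0.13 for the 5 genes of the thick filament and 0.06 for titin and the M-band. When the libraries were scaled to the sum outside the mitochondrial chromosome, the median of all genes moved to -0.19 and that of the 36 genes to 0.01, with 19 positive values. That scaling applies 1 factor to each library and so moves all genes nearly alike. Under quantile normalization, which can move genes of different level differently, the 36 genes stood 0.08 above the median of all genes and the Z-disc core 0.19 above it, against 0.22 and 0.38 in the fit with the deposited scale, and titin and the M-band had a median of -0.08. The medians of the thick filament, the thin filament, and titin and the M-band were negative under the scaling outside the mitochondrial chromosome, at -0.06, -0.06 and -0.14.

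**Figure D1:**
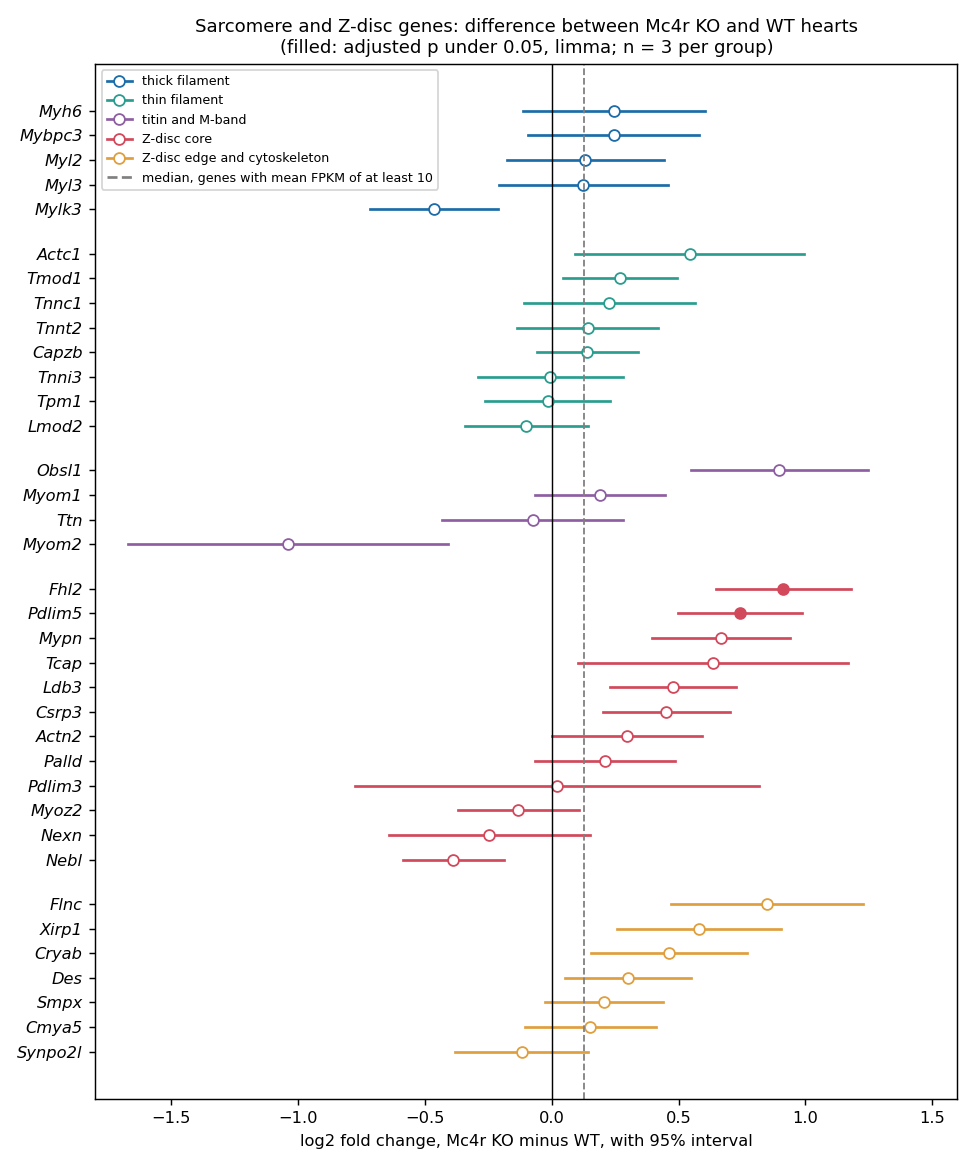
Log2 fold change between Mc4r KO and WT hearts for each of the 36 genes with its 95% interval from limma (n = 3 per group), grouped by position in the sarcomere, with filled points for an adjusted p under 0.05 and a dashed line at the median of genes with at least 10 FPKM. Fhl2 and Pdlim5 have filled points, and Myom2 lies farthest to the left at -1.04 with a wider interval than Nebl or Mylk3.

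Fhl2 (chr1:43123074-43196984 on the minus strand, ENSMUSG00000008136) encodes a protein made of LIM domains that binds titin and other Z-disc proteins. It had 591, 604 and 549 FPKM in WT and 1017, 1185 and 1089 FPKM in Mc4r KO. Every KO library was above every WT library, and the lowest KO value exceeded the highest WT value by more than the whole range of the WT group. Its mean was 581 ± 28.8 in WT and 1097 ± 84 in Mc4r KO (mean FPKM ± SD, n = 3 each), 1.89 times as high (log2 fold change 0.91 ± 0.11 (SE), adjusted p = 0.0355). The 95% interval of the log2 fold change ran from 0.65 to 1.18.

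Pdlim5 (chr3:142239590-142395696 on the minus strand, ENSMUSG00000028273) encodes a PDZ and LIM scaffold that brings protein kinases to alpha-actinin. It had 59.8, 54.6 and 51.6 FPKM in WT and 83.9, 103 and 91.4 FPKM in Mc4r KO, with no overlap between the groups. The mean was 55.3 ± 4.13 in WT and 92.7 ± 9.53 in Mc4r KO (mean FPKM ± SD, n = 3 each) (log2 fold change 0.74 ± 0.10 (SE), adjusted p = 0.043, 95% interval 0.50 to 0.99). Neither Fhl2 nor Pdlim5 shares 50-base words or exon bases with another gene in the GENCODE M21 annotation. Both calls were lost when WT replicate 1 or 2 or any 1 of the KO libraries was left out, with adjusted p from 0.144 to 0.199 for Fhl2 and from 0.144 to 0.211 for Pdlim5. Their log2 fold changes stayed between 0.86 and 0.97 and between 0.67 and 0.81 in those fits. Both calls were also lost with no filter on low values (adjusted p = 0.0857 for Fhl2 and 0.0672 for Pdlim5) and with scaling outside the mitochondrial chromosome (0.0665 and 0.0931), and that of Pdlim5 with a pseudocount of 1 (0.0528) and with quantile normalization (0.0994).

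Mypn encodes myopalladin, which links alpha-actinin to nebulette in the Z-disc. It had 16.8, 19.5 and 17.7 FPKM in WT and 26.8, 33.3 and 26.3 FPKM in Mc4r KO, again without overlap (log2 fold change 0.67 ± 0.12 (SE), adjusted p = 0.0579). Ldb3, the gene of the PDZ-LIM protein ZASP or cypher that binds alpha-actinin, had 121, 141 and 132 FPKM in WT and 166, 202 and 183 FPKM in Mc4r KO (log2 fold change 0.48 ± 0.11 (SE), adjusted p = 0.0871). Csrp3 encodes the muscle LIM protein. Its values were 272, 312 and 284 FPKM in WT and 359.9, 421 and 407 FPKM in Mc4r KO, with the lowest KO library above the highest WT library (log2 fold change 0.45 ± 0.11 (SE), adjusted p = 0.0966). These 3 genes missed the threshold in the fit with all libraries.

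Nebl, which encodes nebulette, an actin-binding repeat protein that reaches from the Z-disc along the thin filament, was the Z-disc gene with the lowest log2 fold change. It had 26.3, 23.1 and 23 FPKM in WT and 18, 18.6 and 18.5 FPKM in Mc4r KO, so that every KO library was below every WT library. The 3 KO values lay closer to each other than the WT values (log2 fold change -0.39 ± 0.08 (SE), adjusted p = 0.0871). Tcap encodes telethonin, the cap on the titin ends in the Z-disc, and had 911, 1215 and 1576 FPKM in WT and 1656, 1779 and 2223 FPKM in Mc4r KO. The groups did not overlap, but WT replicate 3 came close to the lowest KO value and the spread was wide (log2 fold change 0.64 ± 0.23 (SE), adjusted p = 0.181). Actn2, the gene of alpha-actinin itself, had a WT range of 309 to 408 FPKM that overlapped the KO range of 407 to 445 FPKM (log2 fold change 0.30 ± 0.13 (SE), adjusted p = 0.238).

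The other 4 genes of the Z-disc core had overlapping groups. Palld, for the actin-bundling protein palladin, had a log2 fold change of 0.21, Myoz2, for the calcineurin-binding protein calsarcin, -0.13, and Nexn, for the actin-binding protein nexilin, -0.25, with adjusted p of 0.362, 0.513 and 0.452. Of the 50-base words of Nexn, 5.89% are shared with the overlapping gene Gm43185, so its reads are less certain. Pdlim3, for the alpha-actinin-associated LIM protein, had the lowest level of the 36 genes. It had 2.26, 2.71 and 5.68 FPKM in WT and 4.29, 2.8 and 3.03 FPKM in Mc4r KO, and WT replicate 3 was the highest of the 6 libraries (log2 fold change 0.02 ± 0.34 (SE), adjusted p = 0.986). Without WT replicate 3 its log2 fold change was 0.41 (adjusted p = 0.291), and under the scaling outside the mitochondrial chromosome it was -0.17.

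**Figure D2:**
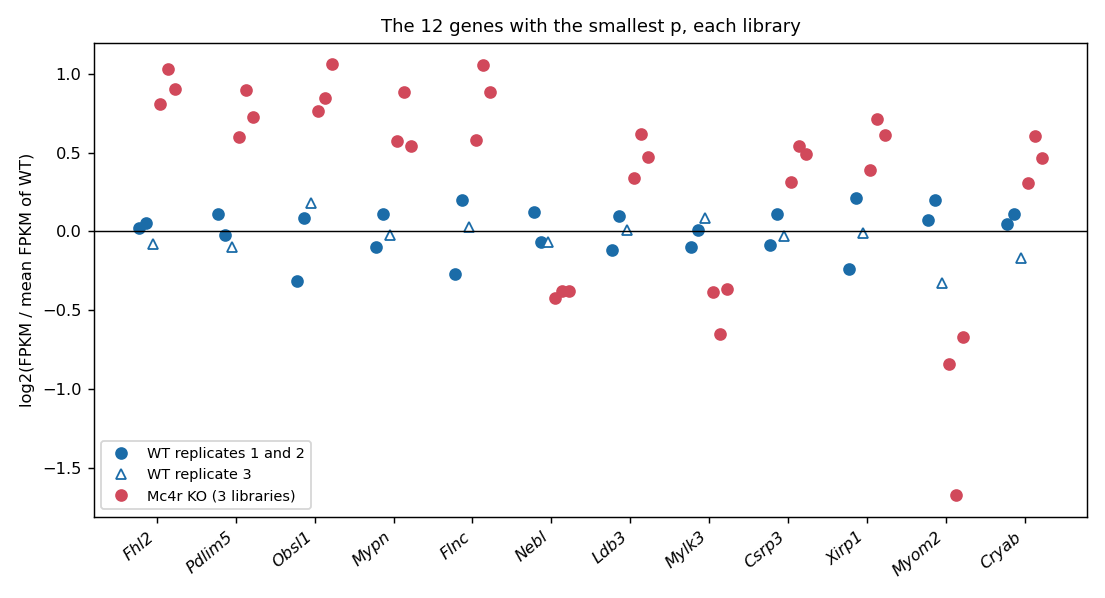
FPKM of each library divided by the mean of the 3 WT libraries, on a log2 scale, for the 12 genes with the smallest p, with WT replicate 3 as an open triangle. The 3 Mc4r KO libraries lie on one side of all WT libraries for each of the 12 genes, above for 9 of them and below for Nebl, Mylk3 and Myom2.

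The windows of 250 bases before the RefSeq transcription starts (GRCm38.p6) were searched on both strands for 6 motifs of muscle promoters. They are the CArG box and the MEF2 motif, known as the binding sequences of serum response factor and of the MEF2 factors, the MCAT core CATTCC, the GATA core AGATAA, the E-box CAGCTG and the TATAAA box. RefSeq windows were matched for 31 of the 36 genes, 45 windows in all, since some genes have several starts whose windows can overlap. A CArG box was present in 8 of the 45 windows (17.8%), against 1.47% of 32851 windows of all genes. The MEF2 motif was in 6 windows (13.3%, against 2.92%), CATTCC in 12 (26.7%, against 12.6%), AGATAA in 9 (20%, against 9.99%), CAGCTG in 10 (22.2%, against 13%) and TATAAA in 5 (11.1%, against 12.4%). These matches are descriptions of the sequence and no binding was measured.

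The CArG boxes are shown because they occur in genes that lie far apart in their fold changes, in capitals with 10 bases on either side, 5′ to 3′ on the strand of the gene. Fhl2 has 2 starts, each with its own box, which begins 96 bases before the upstream start (chr1:43196838-43196867, minus strand) and 31 bases before the downstream start (chr1:43163973-43164002, minus strand). The boxes of Actc1 (chr2:114052903-114052932, minus strand), Ldb3 (chr14:34588697-34588726, minus strand), Myl3 (chr9:110763583-110763612, plus strand), Myom1 (chr17:71019448-71019477, plus strand) and Nebl (chr2:17462999-17463028, minus strand) begin 47, 109, 85, 99 and 162 bases before a start. From the Ldb3 start nearest to the deposited 5′ end, the same box is at -35. The box of Nebl lies before another of its starts. The Nebl window nearest to the deposited 5′ end (chr2:17731135-17731384, minus strand) has none of the 6 motifs.
Fhl2 upstream start: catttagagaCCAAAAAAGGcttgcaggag
Fhl2 downstream start: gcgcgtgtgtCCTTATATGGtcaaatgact
Actc1: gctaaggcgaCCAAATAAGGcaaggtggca
Ldb3: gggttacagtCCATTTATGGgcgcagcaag
Myl3: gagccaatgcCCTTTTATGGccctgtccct
Myom1: gccttcctggCCATAAAAGGctggctgtgg
Nebl: gctcccatctCCTAAATTGGctggaaatgc
The log2 fold changes of these 6 genes were 0.91 for Fhl2, 0.54 for Actc1, 0.48 for Ldb3, 0.19 for Myom1, 0.12 for Myl3 and -0.39 for Nebl. The box was thus found on both sides of 0, below it in Nebl alone.

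The upstream start of Fhl2 also has a MEF2 motif that begins 31 bases before it (chr1:43196773-43196802, minus strand), which overlaps a TATAAA match on the other strand and is in capitals here.
Fhl2 MEF2 motif: tggacatgccTTATTTATAActctgctgac
The other gene called higher, Pdlim5, had none of the 6 motifs in the 250 bases before the start nearest to its deposited 5′ end (chr3:142395697-142395946, minus strand), and that window is shown whole, in lower case because nothing in it matched. RefSeq lists a second start for the gene.
Pdlim5: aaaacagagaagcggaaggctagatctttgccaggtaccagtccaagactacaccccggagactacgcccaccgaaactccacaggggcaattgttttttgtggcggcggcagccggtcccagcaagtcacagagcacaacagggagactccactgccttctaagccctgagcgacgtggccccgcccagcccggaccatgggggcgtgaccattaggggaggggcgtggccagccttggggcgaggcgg
Of this window, 62.8% is G or C. The window before the other start has 1 match, a TATAAA on the opposite strand that begins 78 bases before that start (chr3:142391913-142391938, minus strand) and is in capitals here with 10 bases on either side.
Pdlim5 other start: ttttgttgacTTTATAgaaaatgcat

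Among the genes of the Z-disc edge and cytoskeleton, 4 of 7 had an unadjusted p under 0.05 and all 4 were higher, but none was called after adjustment. Flnc, for filamin C, which joins the Z-disc to the cell membrane, had 19.2, 26.7 and 23.7 FPKM in WT and 34.7, 48.3 and 42.7 FPKM in Mc4r KO (log2 fold change 0.85 ± 0.16 (SE), adjusted p = 0.0666). Xirp1, for the actin-binding Xin repeat protein of the intercalated disc, had 23.4, 31.8 and 27.3 FPKM in WT and 36, 45.2 and 42 FPKM in Mc4r KO (log2 fold change 0.58 ± 0.14 (SE), adjusted p = 0.0973). In both genes all KO libraries exceeded all WT libraries, and Mc4r KO replicate 2 was the highest.

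Cryab, for the small heat shock protein alpha B-crystallin that protects desmin and titin, had 627, 655 and 540.4 FPKM in WT and 751, 923 and 840.0 FPKM in Mc4r KO (log2 fold change 0.46 ± 0.13 (SE), adjusted p = 0.123). Hspb2 covers 17% of its exon bases on the other strand, and the use of strand in the counting is not given in the sources used here, so reads in that overlap cannot be told apart. Des, for the intermediate filament desmin, had 312, 356 and 353 FPKM in WT and 390.4, 449 and 418 FPKM in Mc4r KO (log2 fold change 0.30 ± 0.11 (SE), adjusted p = 0.175). The KO libraries of both genes were above all WT libraries, in each case by less than the range of the WT group. Smpx, a small muscle protein of the costamere, did not overlap either but had a smaller difference (log2 fold change 0.21 ± 0.10 (SE), adjusted p = 0.287). Cmya5, for the desmin-binding protein myospryn, and Synpo2l, for a Z-disc protein of the synaptopodin family, overlapped, with log2 fold changes of 0.15 and -0.12. Under the scaling outside the mitochondrial chromosome Cmya5 was at -0.04, and under quantile normalization Cmya5 and Smpx were at -0.02 and -0.01.

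The log2 fold changes of titin and the M-band genes lay on both sides of 0. Obsl1, for obscurin-like 1, which binds titin and myomesin at the M-band, had 7.1, 9.37 and 10.01 FPKM in WT and 15, 15.9 and 18.4 FPKM in Mc4r KO. All KO libraries were above all WT libraries (log2 fold change 0.90 ± 0.15 (SE), adjusted p = 0.0566). Myom2, for the myomesin that cross-links thick filaments in fast muscle and adult heart, had 131, 143 and 99.4 FPKM in WT and 69.8, 39.2 and 78.5 FPKM in Mc4r KO. All KO libraries were below all WT libraries, but the KO libraries differed widely among themselves, from 39.2 to 78.5 FPKM. Its mean was 125 ± 22.7 in WT and 62.5 ± 20.6 in Mc4r KO (mean FPKM ± SD, n = 3 each), 0.501 times the WT mean, the lowest ratio of the 36 genes, and the difference missed the threshold (log2 fold change -1.04 ± 0.27 (SE), adjusted p = 0.107, 95% interval -1.67 to -0.41).

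Myom1, for the myomesin present in all striated muscle, overlapped between the groups at 95.9 to 123 FPKM in WT and 118 to 128 FPKM in KO (log2 fold change 0.19 ± 0.11 (SE), adjusted p = 0.368). Ttn, the gene of titin, had 24.9 to 31.4 FPKM in WT and 21.9 to 31.2 FPKM in KO, with a difference within the spread of the libraries (log2 fold change -0.07 ± 0.15 (SE), adjusted p = 0.819, 95% interval -0.43 to 0.28). Myom1 was at -0.01 under the scaling outside the mitochondrial chromosome, and Ttn was at 0.08 without Mc4r KO replicate 1. Obsl1 and Myom2 thus stood near opposite ends of the 36 genes, with the more abundant Myom1 between them.

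**Figure D3:**
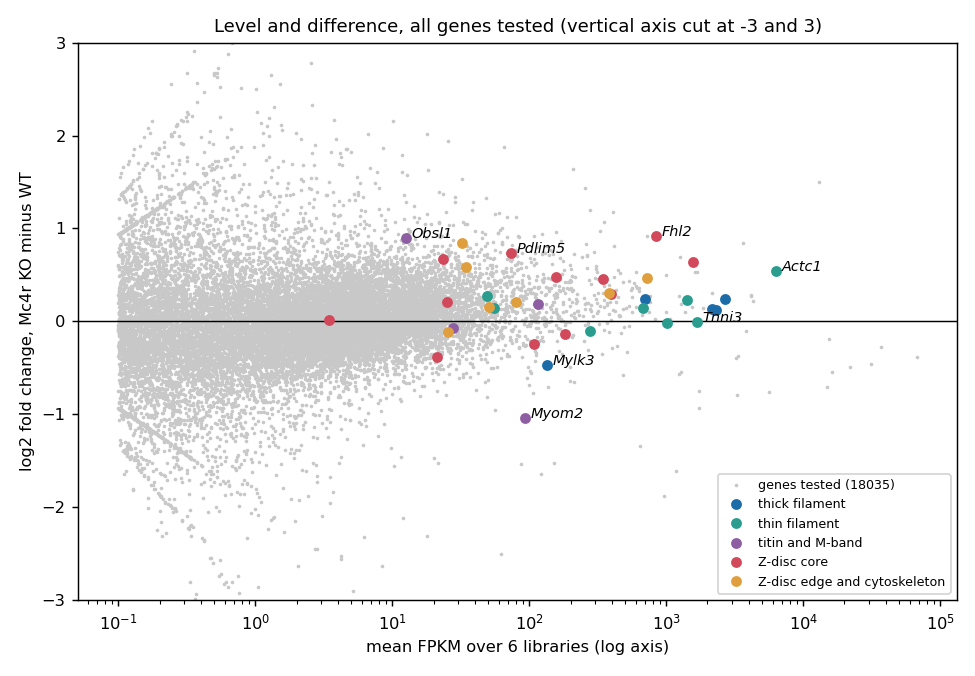
Mean FPKM over the 6 libraries (log axis) and log2 fold change between Mc4r KO and WT for the 18035 genes tested (grey) and the 36 sarcomere and Z-disc genes (coloured by position), with the vertical axis limited to -3 to 3 so that a few genes of low level lie outside. The thick and thin filament genes of highest level lie between -0.02 for Tpm1 and 0.25 for Myh6, except Actc1 at 0.54, and Fhl2 is the gene of the 36 with the highest value.

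In the thick filament, the one gene with an unadjusted p under 0.05 was the kinase and not a structural protein. Mylk3, for the cardiac kinase that phosphorylates the regulatory light chain of myosin, had 145, 156 and 164 FPKM in WT and 119, 98.8 and 121 FPKM in Mc4r KO, so that all KO libraries were below all WT libraries (log2 fold change -0.46 ± 0.11 (SE), adjusted p = 0.0944). Its substrate Myl2, the regulatory light chain of the ventricle, had 2003, 2065 and 2153 FPKM in WT and 2224, 2196 and 2400.0 FPKM in Mc4r KO. The KO libraries of Myl2 were all above the WT libraries, though by a small step (log2 fold change 0.13 ± 0.13 (SE), adjusted p = 0.6, 95% interval -0.18 to 0.44).

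Myh6, for alpha myosin heavy chain, the main cardiac myosin of the adult mouse, had 2231, 2426 and 2714 FPKM in WT and 2697, 2944 and 3082 FPKM in Mc4r KO. WT replicate 3 was above the lowest KO library (log2 fold change 0.25 ± 0.15 (SE), adjusted p = 0.41, 95% interval -0.11 to 0.60). It shares 20.2% of its 50-base words with Myh7, so reads of the 2 genes are partly uncertain. Myl3, for the ventricular essential light chain, had 2249, 2388 and 1983 FPKM in WT and 2387, 2444 and 2364 FPKM in Mc4r KO (log2 fold change 0.12 ± 0.14 (SE), adjusted p = 0.654). Mybpc3, for cardiac myosin binding protein C, ranged from 542 to 751 FPKM in WT and from 710 to 797 FPKM in KO (log2 fold change 0.24 ± 0.14 (SE), adjusted p = 0.382). Myl2 and Myl3 were at -0.06 and -0.07 under the scaling outside the mitochondrial chromosome, and the intervals of all 4 structural genes included 0.

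The thin filament held the most abundant gene of the 36. Actc1, for cardiac alpha-actin, had 5495, 5470.1 and 4568 FPKM in WT and 7123, 8307 and 7188 FPKM in Mc4r KO. Every KO library exceeded every WT library, and WT replicate 3 was the lowest (log2 fold change 0.54 ± 0.19 (SE), adjusted p = 0.18). Tmod1, for tropomodulin, which caps the pointed ends of the thin filaments, ranged from 41.2 to 49.3 FPKM in WT and from 50.2 to 55.7 FPKM in KO (log2 fold change 0.27 ± 0.10 (SE), adjusted p = 0.183). Exons of Tstd2 cover 32.6% of the exon bases of Tmod1 on the other strand, so the reads of Tmod1 are less certain.

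The regulatory proteins of the thin filament were not called at the threshold. Tnni3, for the inhibitory cardiac troponin I, had 1715, 1704 and 1606 FPKM in WT and 1594, 1718 and 1696 FPKM in Mc4r KO (log2 fold change -0.01 ± 0.12 (SE), adjusted p = 0.99). Tpm1, for alpha-tropomyosin, had 1037, 1026 and 1009 FPKM in WT and 1037, 998 and 1003 FPKM in Mc4r KO (log2 fold change -0.02 ± 0.10 (SE), adjusted p = 0.953). On the deposited scale, the 95% intervals ran from -0.29 to 0.28 for Tnni3 and from -0.26 to 0.23 for Tpm1. Over the alternative settings, the lowest log2 fold changes were -0.20 for Tnni3 and -0.21 for Tpm1, so these intervals hold for that scale only. Tnnt2, for cardiac troponin T, Tnnc1, for the calcium-binding troponin C, and Capzb, for the capping protein subunit that holds the barbed ends at the Z-disc, had log2 fold changes of 0.14, 0.23 and 0.14 (adjusted p = 0.543, 0.416 and 0.398). Lmod2, for leiomodin, which lengthens thin filaments, was at -0.10 (adjusted p = 0.611). Tnnt2 and Capzb were at -0.05 and -0.06 under the scaling outside the mitochondrial chromosome and at -0.11 and -0.04 under quantile normalization.

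A ratio of 2 genes within a library does not depend on how the library is scaled, and isoform ratios are a known readout of the fetal gene program of the heart. Myh7, for beta myosin heavy chain, had 18.5, 26.5 and 11.5 FPKM in WT and 16.7, 13.1 and 26.7 FPKM in Mc4r KO, which was 0.830%, 1.09% and 0.423% of Myh6 in WT and 0.619%, 0.446% and 0.867% in KO. The groups overlapped and the log2 ratio differed by -0.23 (two-sided exact permutation test, p = 0.8, adjusted over 4 ratios 0.8). Acta1, for skeletal alpha-actin, had 160.2, 238 and 49.7 FPKM in WT and 233, 555 and 288 FPKM in Mc4r KO. It came to 2.91%, 4.35% and 1.09% of Actc1 in WT and to 3.28%, 6.68% and 4.01% in KO, where WT replicate 3 was the lowest (log2 ratio higher by 0.89, exact permutation p = 0.3, adjusted 0.6).

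Tpm2, for beta-tropomyosin, had 5.27, 6.82 and 10.3 FPKM in WT and 12.4, 12.2 and 6.6 FPKM in Mc4r KO, and its ratio to Tpm1 was 0.508%, 0.665% and 1.02% in WT and 1.19%, 1.22% and 0.658% in KO (log2 ratio higher by 0.49, exact permutation p = 0.3, adjusted 0.6). With 3 libraries per group the smallest p of this test is 0.1, so no ratio could pass the threshold. The atrial light chain Myl4 had 0.184, 6.53 and 57.2 FPKM in WT and 7.68, 0.326 and 0.296 FPKM in Mc4r KO beside Myl3 (log2 ratio -2.30, exact permutation p = 0.7, adjusted 0.8). Myl7, the other atrial light chain, had 0.24, 28.1 and 307 FPKM in WT and 38.8, 0.558 and 0.528 FPKM in Mc4r KO beside Myl2, with 2 reads in WT replicate 1, and was not tested because reads were at or below the floor of 3 in 1 library. WT replicate 3 was highest for both atrial genes, where Myl7 reached 14.3% of Myl2. Tnni1, for the slow skeletal and fetal troponin I, had 1 to 6 reads per library and stayed at or below 0.00681% of Tnni3.

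**Figure D4:**
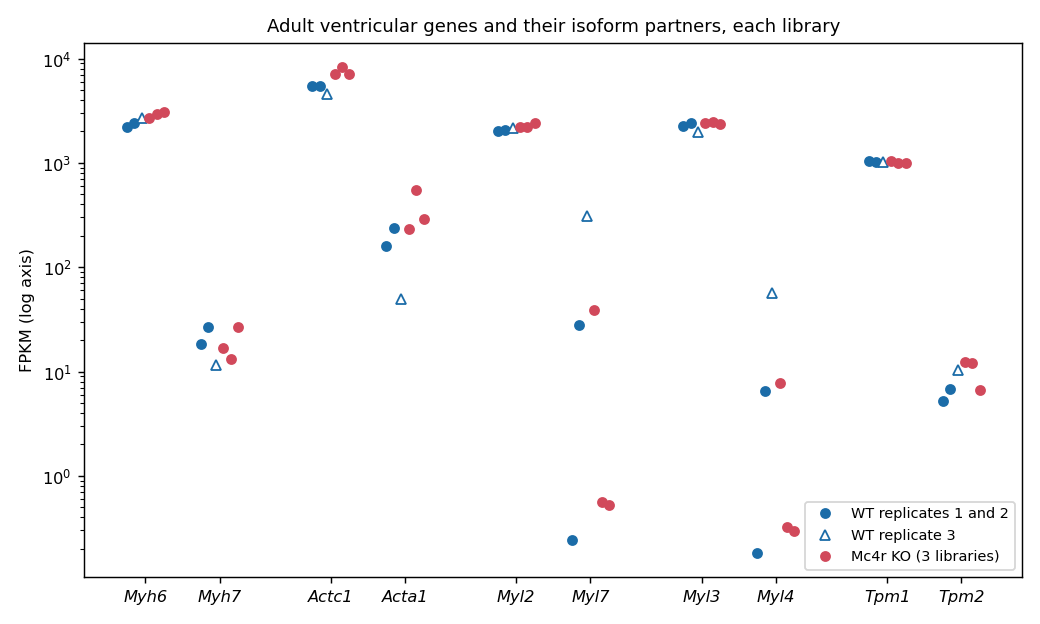
FPKM in each library (log axis) of 5 adult ventricular genes and of an isoform partner of each, with WT replicate 3 as an open triangle. Myl7 and Myl4 spread widely between libraries with the highest value in WT replicate 3, while Myl2, Myl3 and Tpm1 lie within narrow ranges.

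Together the 36 genes took 10.2%, 10.7% and 8.80% of the FPKM outside the mitochondrial chromosome in WT and 10.6%, 10.8% and 10.6% in Mc4r KO. WT replicate 3 was below all other libraries, and the remaining WT libraries lay close to the KO libraries. As a share of the recovered reads outside the mitochondrial chromosome, which are not divided by gene length, the 36 genes took 10.2%, 10.5% and 10.1% in WT and 10.8%, 11.2% and 11.3% in KO, with every KO library above every WT library and WT replicate 3 close to the other WT libraries. In FPKM over all genes, the mitochondrial chromosome included, the shares were 4.15%, 4.56% and 4.66% in WT and 5.96%, 5.76% and 6.07% in KO, with no overlap. The share of mitochondrial transcripts, given above, moved with this difference.

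Leaving out WT replicate 3 changed the calls more than leaving out any other library. Without it, 5 of the 36 genes were called higher (Fhl2, Pdlim5, Obsl1, Mypn and Tmod1) and Nebl was called lower, beside 5.76% of all genes called higher and 2.82% called lower in the same fit. Adjusted p values were 0.0177 for Fhl2, 0.0289 for Pdlim5, 0.0303 for Obsl1, 0.049 for Mypn, 0.0440 for Tmod1 and 0.0393 for Nebl. Among these 6 genes the log2 fold change of Obsl1 moved most, from 0.90 to 0.99. The WT side of that fit rests on 2 libraries. Without any other single library, none of the 36 genes was called.

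Limma voom on the recovered reads called more of the 36 genes, with 10 higher (Fhl2, Pdlim5, Obsl1, Flnc, Mypn, Actc1, Ldb3, Csrp3, Xirp1 and Cryab) and 3 lower (Myom2, Mylk3 and Nebl), beside 2.93% of all genes called higher and 1.6% called lower in that fit. Adjusted p values in it were 0.0302 for Myom2, 0.0333 for Mylk3 and 0.0389 for Nebl.

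**Figure D5:**
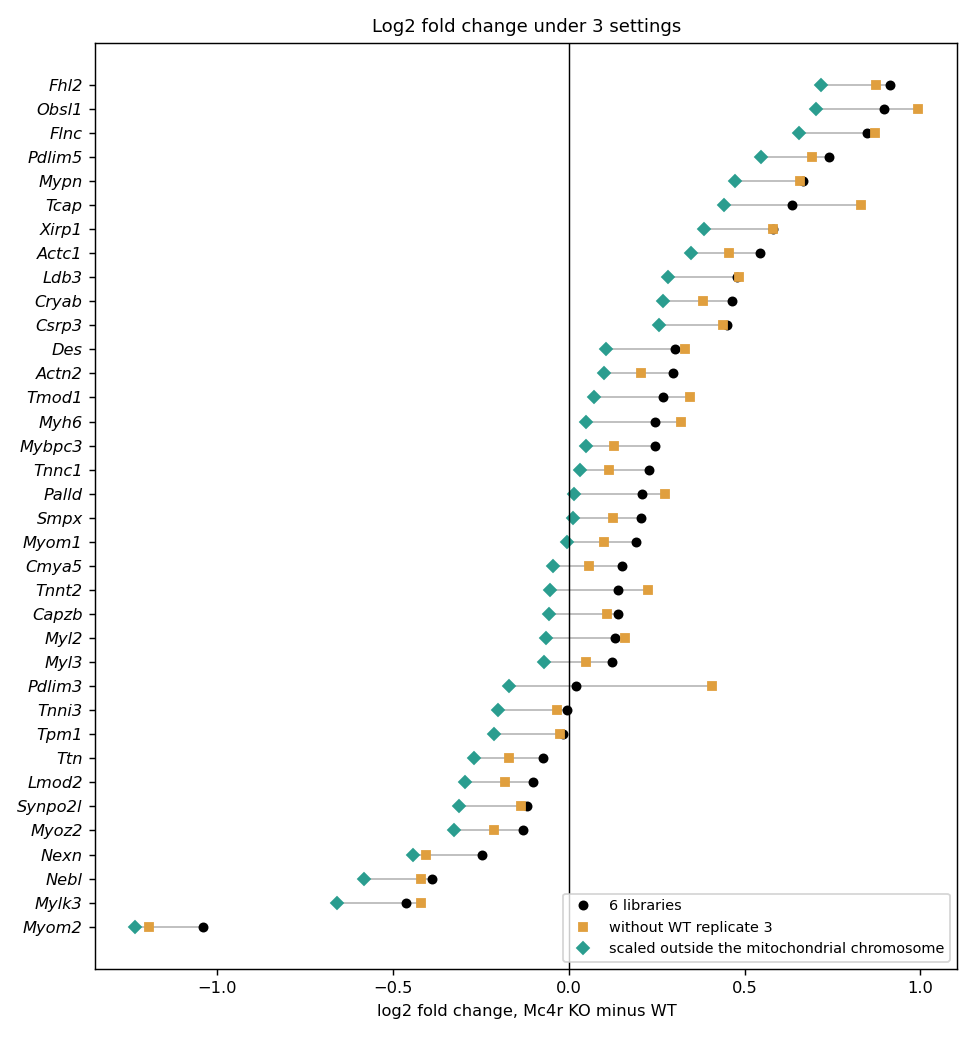
Log2 fold change of each of the 36 genes with all 6 libraries (circles), without WT replicate 3 (squares) and scaled to the sum outside the mitochondrial chromosome (diamonds). The diamonds lie to the left of the circles by about the same step for every gene, and the squares differ most from the circles for Pdlim3, at 0.41 against 0.02.

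Markers of other cells were set beside these differences. The summed level of 12 cardiomyocyte genes outside the sarcomere was 11539 to 12927 FPKM in WT and 15058 to 17123 FPKM in KO, without overlap. The median log2 fold change was 0.29, with 5 of 12 genes higher at an unadjusted p under 0.05 and none called. Pln alone had a negative log2 fold change in this list, at -0.33. Erythrocyte markers summed to 860 to 6344 FPKM in WT and 620.4 to 1651 FPKM in KO, with 3 of 6 lower at an unadjusted p under 0.05. The summed fibroblast markers were 278 to 325 FPKM in WT and 230.4 to 269 FPKM in KO. Of the 10 genes, 3 (Dcn, Lum and Pdgfra) were lower at an unadjusted p under 0.05. Dcn alone had 125, 124 and 109 FPKM in WT and 87.0, 77.1 and 83.0 FPKM in KO. Log2 fold changes were 0.44 for Col1a1, 0.39 for Mfap5, 0.21 for Fbln1 and 0.03 for Col1a2. They were -0.20 for Dpt, -0.30 for Tcf21 and -0.33 for Col3a1. The list of 8 smooth muscle markers holds Des, one of the 36 genes, and without it the other 7 summed to 72.3, 86.8 and 109 FPKM in WT and 135, 151 and 72.8 FPKM in KO, which overlap, with 1 of 7 higher at an unadjusted p under 0.05. Endothelial sums overlapped, at 222 to 262 FPKM in WT and 242 to 281 FPKM in KO, but 4 of 10 genes (Tie1, Flt1, Esam and Egfl7) were higher at an unadjusted p under 0.05. The remaining endothelial genes had log2 fold changes from -0.32 for Emcn to 0.18 for Pecam1, and the median of that list was 0.13. Macrophage sums also overlapped, at 184 to 286 FPKM in WT and 228 to 289 FPKM in KO. Of the 8 genes, 3 (Csf1r, Cd68 and Mrc1) were lower at an unadjusted p under 0.05. The others had log2 fold changes of 0.63 for C1qa, 0.44 for Cd163, 0.31 for C1qb, 0.14 for Lyz2 and -0.03 for Adgre1. The median of the list was 0.05. None of the genes in these lists was called. Over all genes tested, 12% were higher and 8.83% lower at an unadjusted p under 0.05. The smooth muscle count of 1 of 7 was near that share. The part of these markers in the differences of the sarcomere genes was not tested.

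Genes of the same structures outside the 36 were read from 4 further lists. Of 33 other Z-disc and M-band genes tested, Fhl1 and Alpk3 were called higher, beside 0.41% of all genes. At an unadjusted p under 0.05, 12 were higher and 1 lower, beside 12% and 8.83% of all genes, and the median log2 fold change was 0.26. Over all genes of at least 10 FPKM, a level that not all of this list reached, the median was 0.13. Fhl1, a LIM protein of the same family as Fhl2, had 28.9, 31.3 and 27.1 FPKM in WT and 42.9, 49.1 and 49.1 FPKM in Mc4r KO (log2 fold change 0.69 ± 0.09 (SE), adjusted p = 0.0415). Alpk3, for an alpha-kinase of the M-band and nucleus, had 14.7, 16.9 and 15.9 FPKM in WT and 23.3, 26.4 and 25.1 FPKM in Mc4r KO (log2 fold change 0.65 ± 0.09 (SE), adjusted p = 0.0415). Both had all KO libraries above all WT libraries. Both calls were lost with no filter on low values, with scaling outside the mitochondrial chromosome, with quantile normalization, and when any library other than WT replicate 3 was left out. Synpo2, for myopodin, a Z-disc protein, followed with 9.57, 12.1 and 10.3 FPKM in WT and 14.6, 17 and 15.7 FPKM in Mc4r KO (log2 fold change 0.56 ± 0.11 (SE), adjusted p = 0.0756).

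Of 28 genes of the costamere and intercalated disc, Lims2 and Itgb1bp2 were called higher, beside 0.41% of all genes. At an unadjusted p under 0.05, 5 were higher and 4 lower, beside 12% and 8.83% of all genes, and the median log2 fold change was -0.03. Lims2, for the LIM protein PINCH that joins integrins to actin, had 20.2, 23.7 and 21.3 FPKM in WT and 37.8, 33.8 and 34.1 FPKM in Mc4r KO (log2 fold change 0.70 ± 0.09 (SE), adjusted p = 0.0415). Exons of Gpr17 on the other strand cover 6.14% of the 3060 exon bases of Lims2 in GENCODE M21, whose model differs from the deposited one of 2623 bases. Itgb1bp2, for melusin, an integrin-binding chaperone of muscle, had 67.4, 64 and 69.9 FPKM in WT and 96.2, 102 and 99.9 FPKM in Mc4r KO (log2 fold change 0.57 ± 0.08 (SE), adjusted p = 0.0415). In both genes the groups did not overlap. Both calls were lost under the settings that ended the calls of Fhl1 and Alpk3, with adjusted p up to 0.199 when 1 library was left out.

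None of 24 genes of sarcomere assembly and turnover was called, while 11 were higher and 1 lower at an unadjusted p under 0.05, beside 12% and 8.83% of all genes. Their median log2 fold change was 0.29, beside 0.13 over all genes of at least 10 FPKM, a level that not all of this list reached. Hspb7, for a small heat shock protein that binds filamin C, had 515, 559.7 and 420.1 FPKM in WT and 828, 967 and 1026 FPKM in Mc4r KO (log2 fold change 0.92 ± 0.15 (SE), adjusted p = 0.0541). Trim54, for a muscle ring finger protein, had 70.9, 73.7 and 81 FPKM in WT and 101, 115 and 103 FPKM in Mc4r KO (log2 fold change 0.50 ± 0.09 (SE), adjusted p = 0.0654), and Fhod3, for a formin that builds thin filaments, had 51.6, 50.5 and 52.1 FPKM in WT and 62.8, 72.3 and 75.1 FPKM in Mc4r KO (log2 fold change 0.44 ± 0.09 (SE), adjusted p = 0.0763). KO libraries were above WT libraries in each of the 3. Of 16 tested isoform genes of other muscles or stages, none was called and 2 were higher at an unadjusted p under 0.05, a share close to the 12% of all genes. They were Acta1 (log2 fold change 1.43 ± 0.58 (SE), adjusted p = 0.225) and Myl1, an essential light chain of fast muscle, with 10.02, 6.01 and 15 FPKM in WT and 18, 12.3 and 26.2 FPKM in Mc4r KO (log2 fold change 0.89 ± 0.37 (SE), adjusted p = 0.234). Tpm3, for slow tropomyosin, had 10.8, 10.9 and 11.7 FPKM in WT and 10.2, 10.2 and 8.43 FPKM in Mc4r KO (log2 fold change -0.22 ± 0.10 (SE), adjusted p = 0.286), with all KO libraries below all WT libraries.

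Long genes had lower fold changes than short genes across the whole table, with a median log2 fold change of 0.07 for the 2487 genes of over 1000 to 2000 bases and -0.11 for the 2039 genes of over 8000 to 16000 bases. The medians of the sarcomere genes in these classes were 0.35 for 6 genes and 0.20 for 8 genes. Among all genes of at least 10 FPKM, the level of most sarcomere genes, the medians in these classes were 0.22 and -0.02. Pdlim5, Obsl1, Flnc, Nebl and Myom2 all belong to the longer class, at 8877, 8467, 9402, 15235 and 8853 bases. The part of gene length in the differences was not tested.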

How the data were processed

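Per the study's methods, polyadenylated RNA was made into libraries with an NEB kit, reads were filtered, and pairs were counted on genes. Per the labels, HISAT2 2.0.5 and mm10 were used, and the use of strand is not given in the sources used here. The authors deposited FPKM per gene and library. Multiplied by gene length, 100% of the values in each library were whole multiples of the worth of 1 read (within 0.05 of a read), so reads per gene were recovered.

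The FPKM were scaled by median-of-ratios factors, all 1, and tested as log2(FPKM + 0.1) with limma 3.58.1 (R 4.3.3) with trend on 18035 genes of at least 0.1 FPKM on average, two-sided, with Benjamini-Hochberg adjustment. Ratios used the exact permutation test. The pseudocount makes folds of low genes too small. The script was tested on simulated data.

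The genes and lists were chosen with earlier results of these data known. Values per library are given for called genes, the 12 of smallest p, the 3 of highest and 3 of lowest level, genes of the ratios, and the first 3 by p of each further list, of which 1 gene is not reported here. Other genes named beside these were described for completeness or as markers. Promoter windows are from RefSeq (GRCm38.p6), and 99.8% of identifiers were found in GENCODE M21. Figures used Python 3.11.15 and matplotlib 3.10.9. Alternatives are listed in the closing section.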

Additional observations from a re-analysis of the deposited data

How the results depend on the processing

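Of the 36 genes, 2 were called with all libraries. The count was 1 with a pseudocount of 1 (Fhl2), 1 with quantile normalization (Fhl2), 0 with no filter on low values, 0 with scaling outside the mitochondrial chromosome, 5 with a mean of at least 1 FPKM, 5 among protein-coding genes only, and 13 with limma voom on the recovered reads, 10 higher and 3 lower. It stayed at 2 with a pseudocount of 0.01. FPKM as deposited gave the same fit, since all scaling factors were 1. Leaving out 1 library gave 0 to 6 calls, with 6 only without WT replicate 3 and 0 without each of the other 5. For the 4 further lists, 4 genes were called with all libraries, 0 with no filter, 8 with at least 1 FPKM, 0 with scaling outside the mitochondrial chromosome, 0 with quantile normalization, 12 among protein-coding genes, 19 with voom, and 0 to 17 without 1 library, with 17 only without WT replicate 3. The cause of the calls gained or lost under these settings was not tested.

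The median of the 36 genes was 0.0127 with scaling outside the mitochondrial chromosome and 0.0619 with quantile normalization. Signs turned with scaling outside the mitochondrial chromosome for Myl2 (-0.0637), Myl3 (-0.0714), Tnnt2 (-0.0546), Capzb (-0.0560), Myom1 (-0.00506), Pdlim3 (-0.169) and Cmya5 (-0.0436), with quantile normalization for Tnnt2 (-0.110), Tnni3 (0.0596), Capzb (-0.0393), Smpx (-0.0123) and Cmya5 (-0.0241), and with voom for Pdlim3 (-0.0101). Without 1 library each in turn, Tnni3 ranged from -0.0348 to 0.0300, Pdlim3 from -0.239 to 0.409, Ttn from -0.177 to 0.0754, and the log2 ratio of Myh7 to Myh6 from -0.616 to 0.0672.

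The replicate numbers did not pair the libraries, since deviations from the group means in same-numbered libraries correlated at -0.380, 0.0651 and -0.176. With the replicate block, 0 of the 36 genes and 0 genes of the further lists were called. The edgeR and DESeq2 fits listed at the start were not run, because the deposited unit is FPKM. With 3 libraries per group, only large or very even differences could pass the threshold.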
